A study of Juglans regia with 12 samples.

Results

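Genes of the Persian walnut (Juglans regia) whose IDs place them on a D or an S chromosome were compared in flower buds of an early-flowering and of a late-flowering type. The members were the genes whose ID holds a chromosome number from 1 to 8 followed by D or S, which 31286 of the 31425 genes of the deposited mRNA table did, 18179 on D and 13107 on S chromosomes. The 139 remaining genes, whose IDs start with Jr00, were left out of the comparisons of D with S. The early-flowering group was labelled precocious walnut (ZS) with the stage Early flower, and the late-flowering group was labelled late fruiting walnut (WS) with the stage Late flower. Each had 3 mRNA libraries from flower buds of field-grown trees in Aksu, Xinjiang. Type and stage change together in these labels, so a difference between types and a difference of bud stage cannot be told apart. No label names a cultivar, a treatment or a number of trees. Whether the 3 libraries of a type stem from different trees is not stated, and p-values therefore reflect the spread among these libraries, which may be technical. Defining markers of flower buds could not be checked, because the gene IDs carry no names.

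Walnut descends from an ancestor whose whole genome was doubled, and its chromosomes still form pairs that go back to that doubling. After such an event, copies of genes are lost over time from either chromosome of a pair. When 1 set of chromosomes keeps more genes, or keeps them at higher expression, the sets are called subgenomes with biased retention or biased expression. The letters D and S in the IDs mark the member of each pair, so chromosome 1D is set against 1S, and so on to 8D against 8S. The table does not say which D gene and which S gene are copies of each other, so the comparison is between whole chromosomes and not between copies. No ID matched the RefSeq gene table of walnut (0 of 31425 IDs, against 37996 reference genes), so functions, gene lists and sequences are not given. The sources used here give no genome build, and places are stated as the order of the IDs.

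D chromosomes held more genes than S chromosomes in every pair. The IDs do not say how the letters were given, so whether gene number decided them is not known here. The IDs of each of the 16 chromosomes ran from the first number upwards with no gap, so the listed genes are the whole numbered set and not only the genes with reads. Overall there were 1.39 D genes for each S gene. The ratio was widest in pair 1, with 3076 genes on 1D and 1885 on 1S, a ratio of 1.63. It was narrowest in pair 5, with 2120 genes on 5D and 1792 on 5S, a ratio of 1.18. The remaining pairs lay between 1.30 for pair 7 and 1.48 for pair 8. The D set thus outnumbered the S set to a different degree from pair to pair.

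D genes were also slightly longer. The median length was 1217 bases for D genes, with an interquartile range of 696 to 1879.5, and 1155 bases for S genes, with 663 to 1811. The length is the one the deposited table gives for each gene, and it is a property of the annotation with no replicate error. The D median was the greater in 7 of the 8 pairs. The exception was pair 1, with 1175.5 bases for 1D and 1185 for 1S. The gap was widest in pair 5, with 1245 bases for 5D and 1098 for 5S, and narrow in pair 8, with 1150.5 bases for 8D and 1134 for 8S. Pair 5 thus had the narrowest ratio of gene numbers and the widest gap of median length.

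A gene was called expressed in a library when its FPKM (reads scaled by gene length and by the reads counted in the library) was at least 1. Of the D genes, 67.3%, 67.4% and 67.4% were expressed in the early-flowering libraries and 65.6%, 65.7% and 65.0% in the late-flowering ones. Of the S genes, 64.6%, 64.9% and 64.9% were expressed in the early-flowering libraries and 63.1%, 62.5% and 62.3% in the late-flowering ones. The D share was the higher in 6 of 6 libraries, by 2.50 to 3.19 percentage points. Since D also has more genes, there were 1.44 to 1.46 expressed D genes for each expressed S gene. No read was counted in any library for 3027 D genes (16.7%) and 2434 S genes (18.6%). Of these silent D genes, 552 lay on 1D (17.9% of its genes) and 442 on 8D (26.3% of its genes).

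The pairs did not share 1 direction. In pair 5 the D chromosome had the higher share of expressed genes by 9.25 to 9.66 points, with 70.7%, 70.7% and 70.5% of 5D genes and 61.0%, 61.0% and 61.3% of 5S genes in the early-flowering libraries. Pairs 2, 3, 4, 6 and 7 also had the higher share on D in 6 of 6 libraries. In pair 8 the S chromosome was ahead in 6 of 6 libraries, with 54.5%, 53.9% and 53.9% of 8D genes and 60.2%, 60.8% and 60.3% of 8S genes in the early-flowering libraries. Chromosome 8D had the lowest share of expressed genes of the 16, and 26.3% of its genes had no read in any library. In pair 1 the S chromosome was ahead as well, with 66.4%, 66.6% and 66.4% of 1D genes and 69.7%, 69.8% and 70.1% of 1S genes in the early-flowering libraries. Pair 1 is also the one with the most surplus genes on D, so that expressed genes still numbered 1.52 to 1.56 on 1D for each on 1S.

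**Figure D1:**
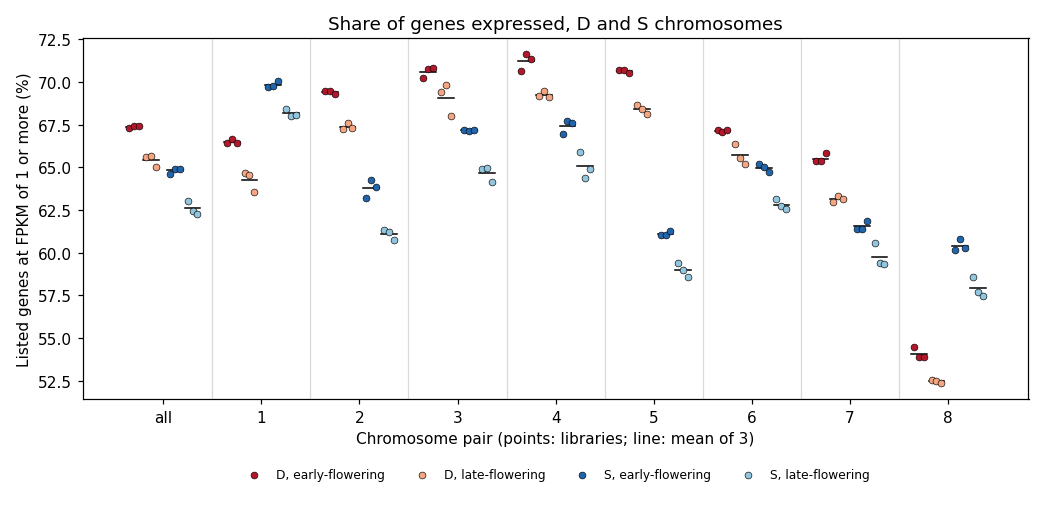
Share of listed genes at an FPKM of at least 1 (vertical axis, percent) for D and S over all pairs and for each of the 8 pairs (horizontal axis), with 1 point per library and a line at the mean of 3. D lies above S except in pairs 1 and 8, and in each chromosome the early-flowering libraries lie above the late-flowering ones.

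More genes reached an FPKM of 1 in early-flowering than in late-flowering buds in both subgenomes. The number of expressed D genes was 12235, 12261 and 12255 in early-flowering libraries and 11930, 11937 and 11825 in late-flowering libraries. The number of expressed S genes was 8472, 8509 and 8508 in early-flowering libraries and 8264, 8188 and 8161 in late-flowering libraries. The groups did not overlap in either subgenome, nor on any of the 16 chromosomes. After the FPKM values were rescaled with the TMM factors of the test described further down, they did not overlap on 15 of 16 chromosomes. With a limit of 10 reads in place of FPKM, they did not overlap on 8 of 16, and with a limit of 1 read on 2 of 16. Over all D genes the types overlapped at both limits, with 12763 to 12835 genes at 10 reads or more in early-flowering and 12579 to 12788 in late-flowering libraries. Over all S genes they did not overlap at either limit, with 8852 to 8907 genes at 10 reads or more in early-flowering and 8712 to 8828 in late-flowering libraries. The libraries held 16897407 to 19053541 gene counts in early-flowering buds and 18284067 to 23429891 in late-flowering buds, and the part of depth in these numbers was not tested. In buds, which hold many cell types, fewer cells of a type and less RNA per cell cannot be told apart.

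Among expressed genes, the level of D genes was higher than that of S genes by a few percent. The median FPKM of expressed D genes was 14.687, 14.427 and 14.737 in early-flowering libraries and 14.161, 14.699 and 14.856 in late-flowering libraries. The median of expressed S genes was 13.996, 13.973 and 14.241 in early-flowering libraries and 13.724, 14.120 and 14.165 in late-flowering libraries. Within each library the D median was the higher, and the ratio of D to S ran from 1.03 to 1.05 with a geometric mean of 1.04. An exact two-sided sign-flip permutation test over the 6 libraries gave p = 0.03125, the smallest that 6 libraries allow. The test gives this p whenever the ratio lies on the same side of 1 in all 6 libraries, whatever the spread. The libraries also share their genes, so they are not independent measures of the ratio. Over all listed genes, with silent ones included, the ratio of medians was larger, 1.17 to 1.32. Genes at an FPKM of 100 or more made up 4.05% to 4.31% of the D genes and 3.61% to 3.81% of the S genes.

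This difference in level came from some pairs and not from others. In pair 5 the median of expressed genes was 14.5, 14.7 and 14.8 FPKM on 5D and 13.1, 13.3 and 13.3 FPKM on 5S in early-flowering libraries, and the ratio over all 6 libraries was 1.10 to 1.14. Pairs 2, 7 and 8 had ratios of 1.07 to 1.13, 1.08 to 1.17 and 1.05 to 1.14, and pair 4 had 1.01 to 1.04. In pair 6 the S chromosome was the higher in 6 of 6 libraries, with 14.512, 13.874 and 14.445 FPKM on 6D and 15.005, 14.933 and 15.409 FPKM on 6S in early-flowering libraries. In pairs 1 and 3 the sign varied between libraries, with D higher in 2 of 6 in each. Pair 8 thus had fewer of its D genes expressed, but those that were had a higher median than the expressed S genes.

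**Figure D2:**
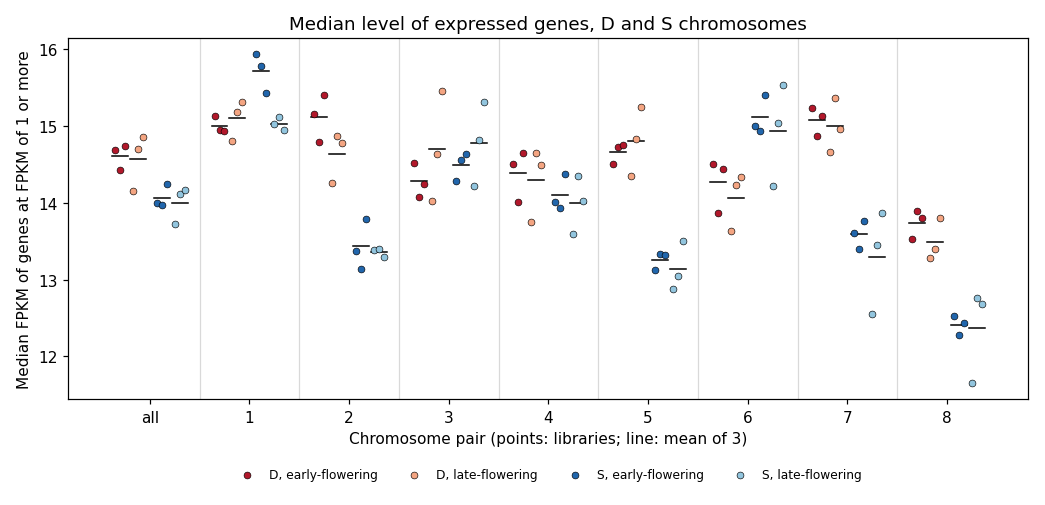
Median FPKM of genes at an FPKM of at least 1 (vertical axis, not starting at 0) for D and S over all pairs and for each pair (horizontal axis), with 1 point per library and a line at the mean of 3. D lies above S in pairs 2, 5, 7 and 8 and below it in pair 6, while early- and late-flowering libraries overlap for both subgenomes overall.

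The share of expressed genes was larger among longer genes in both subgenomes. When the D and S genes were divided into 4 groups of about equal size by length, 37.4% to 38.7% of the D genes and 36.4% to 38.3% of the S genes of at most 681 bases were expressed. In the group of 1849 bases and more, 83.7% to 87.4% of the D genes and 82.6% to 86.5% of the S genes were. The shortest group held 24.3% of the D genes and 26.1% of the S genes, and the longest group held 25.9% of the D genes and 23.8% of the S genes. In the group of 1189 to 1848 bases, 76.6% to 79.1% of the D genes and 73.1% to 76.3% of the S genes were expressed. The median of expressed genes in the shortest group was 14.90 to 16.00 FPKM for D and 14.47 to 15.29 FPKM for S, with overlap. In the group of 682 to 1188 bases it was 15.2 to 16.5 FPKM for D and 15.8 to 16.9 FPKM for S, with overlap. In the group of 1189 to 1848 bases it was 15.13 to 15.64 FPKM for D and 14.22 to 14.86 FPKM for S. In the longest group it was 12.90 to 13.96 FPKM for D and 12.09 to 13.03 FPKM for S, with overlap. The part of length in the difference between D and S was not tested.

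Expression varied along the order of the IDs. The sources used here do not state that the order of the IDs is the order of the genes on the chromosome. Each chromosome was divided into 10 equal parts by gene number. In the first part a median over libraries of 73.5% of the D genes and 68.4% of the S genes was expressed, and in the last part 75.8% of the D genes and 75.5% of the S genes. In part 5 it was 57.8% of the D genes and 64.0% of the S genes, and in part 7 it was 58.8% of the D genes and 53.9% of the S genes. On the D chromosomes median length was also lowest in part 5, with 1267, 1110 and 1394 bases in parts 1, 5 and 10. On the S chromosomes it was lowest in part 3, at 1042 bases, and was 1113 bases in part 7, where the share of expressed genes was lowest. On 15 of 16 chromosomes the first and last parts together had a higher share of expressed genes in each library than parts 4 to 7, the middle, in any library. The contrast was wide on chromosome 8D, with 68.1% to 71.6% of genes expressed at the ends and 37.7% to 40.4% in the middle, and on its partner 8S, with 73.6% to 76.7% and 45.8% to 49.8%. The middle of 8D was the lowest of the 16. A single end could still lie below the middle, by medians over libraries. On 3S part 1 had 57.1% and part 10 had 77.1%, against 60.5% in the middle. On 7D part 10 had 58.0% and part 1 had 78.7%, against 60.2% in the middle. The libraries of part 10 of 7D overlapped those of its middle.

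Chromosome 6S was the exception, with a lower share in its first and last parts together than in its middle. At its ends 54.2% to 59.2% of genes were expressed and in its middle 78.5% to 81.2%. In the first 3 parts of 6S the medians were 33.8%, 24.3% and 40.8%, and in parts 5 and 6 they were 84.9% and 88.0%. Median length was 963, 738 and 844.5 bases in the first 3 parts and 1338.5 bases in the last. On 6D, its partner, the ends had 71.0% to 73.9% and the middle 59.5% to 61.3%. The low stretch of 6S thus stood at the low ID numbers, and that of 6D in the middle.

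**Figure D3:**
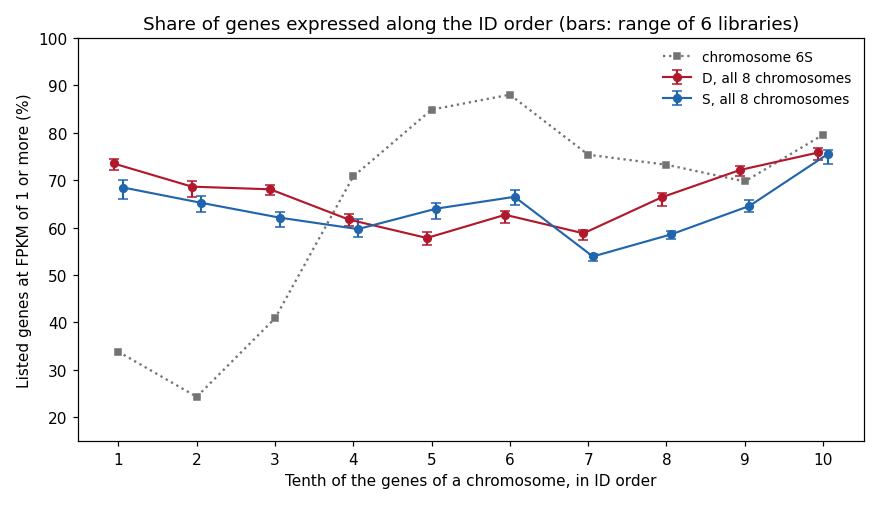
Share of listed genes at an FPKM of at least 1 (vertical axis, percent) in each of 10 equal parts of the genes of a chromosome in ID order (horizontal axis), as the median over 6 libraries with bars for their range, for the 8 D and the 8 S chromosomes, and for chromosome 6S alone as the median. Both subgenomes are highest in the first and last parts, and 6S is lowest in the second part at 24.3%.

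The next question was whether D and S genes differed in their response to type. Read counts of all 31425 genes were tested between early- and late-flowering libraries in a single fit (edgeR's quasi-likelihood test, Benjamini-Hochberg adjusted p under 0.05). A filter on low counts left 12811 D genes (70.5%) and 8878 S genes (67.7%) to be tested. Of all 21740 genes tested, 27.1% were called, 14.2% higher and 13.0% lower in early-flowering buds. Of the D genes tested, 1819 (14.2%) rose and 1717 (13.4%) fell, and of the S genes 1250 (14.1%) rose and 1105 (12.4%) fell. These shares are near the background, so the number of calls does not set the subgenomes apart. The median log2 fold change was −0.01 over tested D genes and 0.0057 over tested S genes. The median log2 fold change of the genes that rose was 0.98 in D and 1.01 in S, and of those that fell −0.67 in D and −0.66 in S. The median coefficient of variation between replicates, as the fit estimated it, was 0.151 for D and 0.150 for S genes.

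Calls of at least 2-fold in size were more often upward in both subgenomes. Of all genes tested, 7.01% passed this limit as higher and 3.83% as lower. Of the D genes, 881 (6.88%) were higher and 519 (4.05%) lower, and of the S genes 637 (7.18%) were higher and 313 (3.53%) lower. With total counts as library sizes and no fold limit, 2480 D genes (19.4%) were higher and 1180 (9.21%) lower. Of the S genes, 1730 (19.5%) were higher and 752 (8.47%) lower, against 19.4% and 8.90% of all genes tested. The number of calls also hung on single libraries. It was 795 for D and 517 for S when early-flowering replicate 2 was dropped, and 1299 for D and 850 for S when early-flowering replicate 3 was. Dropping late-flowering replicate 2 left 1637 for D (12.6%) and 1056 for S (11.7%), against 12.3%. Dropping late-flowering replicate 3 left 2137 for D (16.5%) and 1459 for S (16.2%), against 16.4%.

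By chromosome, the share of tested genes that rose ran from 13.1% on 6D to 15.6% on 5D among D chromosomes, and from 12.8% on 6S to 15.6% on 5S among S chromosomes. The share that fell ran from 11.6% on 8D to 14.5% on 1D, and from 10.9% on 2S to 13.6% on 3S. Both chromosomes of pair 5 had the highest share of genes that rose within their subgenome, and both of pair 6 the lowest. In pair 2, 281 of 1930 genes rose and 269 fell on 2D, against 179 of 1333 that rose and 145 that fell on 2S. In pair 8, 143 of 963 genes rose and 112 fell on 8D, against 111 of 725 that rose and 94 that fell on 8S. Each of these shares lies within 3 points of the background, and the differences between chromosomes were not tested.

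**Figure D4:**
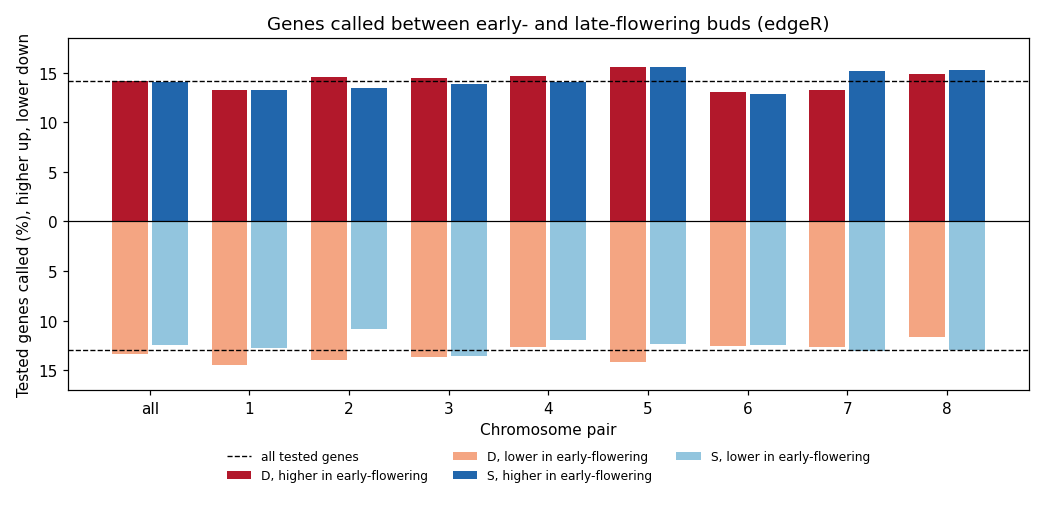
Percent of tested genes called higher (bars above 0) and lower (bars below 0) in early-flowering than in late-flowering buds (edgeR adjusted p under 0.05, 3 libraries per type) for D and S over all pairs and for each pair, with dashed lines at the shares over all 21740 genes tested. All bars lie near the lines of 14.2% and 13.0%.

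The direction of the calls varied with abundance in both D and S, which were not tested against each other here. The tested D and S genes were divided into 5 groups by mean abundance. Of all genes tested, 14.2% were higher and 13.0% lower. In the lowest group, 400 of 2494 D genes rose (16.0%) and 129 fell (5.17%). Of the 1844 S genes there, 290 rose (15.7%) and 87 fell (4.72%). In the middle group, 377 of 2554 D genes rose (14.8%) and 378 fell (14.8%). Of its 1783 S genes, 271 rose (15.2%) and 255 fell (14.3%). In the highest group, 230 of 2657 D genes rose (8.66%) and 523 fell (19.7%). Of its 1681 S genes, 137 rose (8.15%) and 329 fell (19.6%). The highest group held 20.7% of the tested D genes and 18.9% of the tested S genes. The lowest held 19.5% of the tested D genes and 20.8% of the tested S genes.

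The ratio of D to S counts inside a library, which no scaling between libraries alters, was lower in early-flowering buds. D chromosomes took 62.3%, 61.9% and 61.8% of the counts in early-flowering libraries and 62.6%, 62.7% and 62.9% in late-flowering libraries. S chromosomes took 37.6%, 38.0% and 38.1% in early-flowering libraries and 37.3%, 37.3% and 37.0% in late-flowering libraries. The ratio was 1.65, 1.63 and 1.62 in early-flowering libraries and 1.68, 1.68 and 1.70 in late-flowering libraries. On the log2 scale it averaged 0.709 ± 0.0158 in early-flowering and 0.754 ± 0.0110 in late-flowering libraries (SD, n = 3 each), a difference of −0.046. The groups did not overlap, with p = 0.1 by an exact two-sided permutation test, which cannot go lower with 3 libraries a type. With 8 pairs tested beside it, the adjusted exact p was 0.225.

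When each tested gene had the same weight, the direction was the same. The mean log2 CPM (counts scaled to library size with TMM factors) of tested D genes exceeded that of tested S genes by 0.103, 0.0921 and 0.0876 in early-flowering libraries and by 0.114, 0.138 and 0.142 in late-flowering libraries. The difference between D and S averaged 0.0943 ± 0.00804 in early-flowering and 0.132 ± 0.0151 in late-flowering libraries (SD, n = 3 each). The groups did not overlap, with an exact two-sided permutation p of 0.1. In both types D genes were thus higher on average, by a margin that was 0.037 smaller on the log2 scale in early-flowering buds.

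Among the pairs, the ratio of summed counts was lower in early-flowering buds without overlap in pairs 1, 4 and 6. In pair 1 the log2 ratio was 0.660, 0.633 and 0.636 in early-flowering libraries and 0.693, 0.729 and 0.733 in late-flowering libraries. In pair 4 it was 0.764, 0.736 and 0.724 in early-flowering libraries and 0.814, 0.780 and 0.846 in late-flowering libraries. In pair 6 it was 0.903, 0.844 and 0.811 in early-flowering libraries and 0.973, 0.911 and 1.01 in late-flowering libraries. Each of these gave the smallest exact p of 0.1, or 0.225 when adjusted over the 9 ratios. The early-flowering libraries overlapped the late-flowering ones in pairs 2, 3, 5, 7 and 8, with differences of means from −0.040 in pair 7 to −0.0020 in pair 5. Late-flowering replicate 2 stood apart in pair 3, at 0.719 beside 0.646 and 0.616 in the other late-flowering libraries.

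The most abundant genes held a large share of these sums. The 1% of D genes with the most counts held 23.8% to 24.4% of the D counts in early-flowering and 26.4% to 27.1% in late-flowering libraries. The 1% of S genes with the most counts held 21.0% to 22.0% of the S counts in early-flowering and 22.97% to 23.73% in late-flowering libraries. The gene with the most counts of all D genes lies on 6D, is 575 bases long, and had 123598, 60283 and 56952 counts in early-flowering libraries against 211249, 184409 and 241666 in late-flowering libraries (log2 −1.35, SE 0.30, edgeR adjusted p = 0.0187). It was chosen after its values were seen. Without this gene, the log2 ratio of pair 6 averaged 0.770 ± 0.0197 in early-flowering and 0.770 ± 0.0122 in late-flowering libraries, so the difference in pair 6 rested on this gene. The overall difference was −0.032 without it, still with no overlap.

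Without the 1% of all genes with the most counts, the overall log2 ratio averaged 0.598 ± 0.00563 in early-flowering and 0.618 ± 0.0104 in late-flowering libraries (SD, n = 3 each). That difference was −0.019, less than the −0.046 over all genes and with no overlap. Pair 1 then had −0.025 and pair 5 −0.041, both with no overlap. Pair 7 had −0.042, pair 2 −0.029, pair 3 −0.019 and pair 4 −0.0083, each with overlap, and pair 6 had 0.0029. In pair 8 the sign turned, to 0.018 with no overlap. The ratio of D to S counts was thus lower in early-flowering libraries overall and in pair 1 both with and without the most abundant genes.

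**Figure D5:**
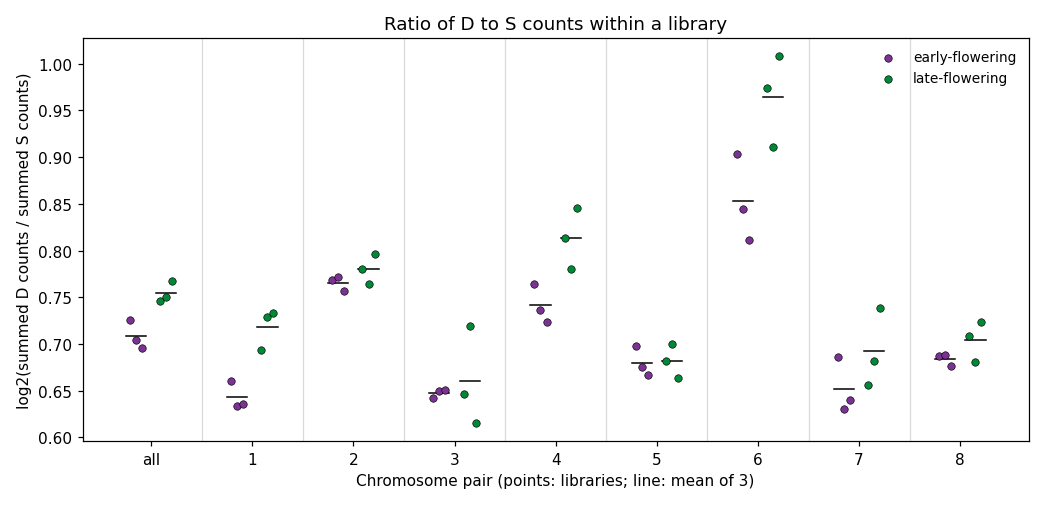
Log2 ratio of summed D counts to summed S counts in each library (vertical axis, not starting at 0) over all pairs and for each pair (horizontal axis), early-flowering left of late-flowering, with a line at the mean of 3. The early-flowering points lie below the late-flowering ones over all pairs and in pairs 1, 4 and 6.

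Counts summed per chromosome were also tested between types. With the library sizes of the gene test, the sums had log2 fold changes of −0.18 to −0.06 on D chromosomes and −0.12 to −0.06 on S chromosomes. All 8 D sums and 7 of the 8 S sums passed as lower in early-flowering buds (edgeR, adjusted p of 2.6e-05 to 0.0043 for D), as did 88.2% of the 17 sums tested, the unplaced genes being the last. With total counts as library sizes, which gives tested genes a median log2 fold change of 0.09 in place of −0.0052, 0 of 16 sums passed (edgeR), and 9 had an unadjusted p under 0.05. The log2 fold changes were then −0.08 to 0.04 on D and −0.02 to 0.04 on S chromosomes, with a positive sign for 7 of the 8 S sums and 3 of the 8 D sums. Relative to the whole library, the S chromosome 3S and the D chromosomes 1D, 3D, 4D, 6D and 7D thus had negative values. Without the 1% most abundant genes, 8 of 8 D sums and 5 of 8 S sums passed, with log2 fold changes of −0.08 to −0.05 on D and −0.07 to −0.0087 on S chromosomes. The calls of 2S (edgeR adjusted p = 0.0588) and 5S (edgeR adjusted p = 0.316) were then lost, and the log2 fold change of 6D was −0.07 and that of 4D −0.05. A direction for a chromosome as a whole depends on the scaling, whereas the ratio of D to S does not.

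Called genes with adjacent IDs shared a direction in a larger share of pairs than distant ones, a difference that was not tested. Of 837 pairs of D genes with adjacent IDs in which both genes were called, 60.2% changed in the same direction, and of 566 such pairs of S genes 62.0% did. At 20 IDs apart the share was 49.8% of 769 pairs in D and 51.8% of 425 pairs in S. At 2 IDs apart it was 53.8% in D and 51.6% in S. The likeness was thus held mostly by direct neighbours in both subgenomes. The protocol names a stranded kit, but the sources used here do not say whether counting used strand, so reads of overlapping neighbours may not be told apart.

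In blocks of 50 consecutive genes, the calls were spread over both subgenomes. Of 538 blocks with at least 25 tested genes, the median block had 13.9% of its tested genes higher and 12.6% lower. The block with the highest share of genes that rose held genes 851 to 900 of chromosome 5S, where 10 of 25 tested genes rose and 0 fell, with log2 fold changes of 0.62 to 1.88. The next held genes 451 to 500 of 7S, where 13 of 34 rose and 3 fell. The block with the highest share of genes that fell held genes 2251 to 2300 of 3D, where 14 of 39 fell and 4 rose, and the next held genes 1751 to 1800 of 1D, where 12 of 34 fell and 3 rose. Both blocks picked for genes that rose thus lie on S and both picked for genes that fell on D, and since they are the extremes of 538 blocks they are given with no test. Without early-flowering replicate 2, 8.0% rose in the 5S block and 8.57% in the 7S block, against 2.88% of all genes tested. The share that fell was 17.9% in the 3D block and 5.88% in the 1D block, against 3.10% of all. Without early-flowering replicate 3, the block shares were 19.2% for 5S, 11.8% for 7S, 20.5% for 3D and 14.7% for 1D. Of all genes tested in that setting, 4.85% rose and 4.94% fell. Without late-flowering replicate 2, the block shares were 25.9% for 5S, 14.3% for 7S, 23.1% for 3D and 14.7% for 1D. Of all genes tested there, 5.79% rose and 6.48% fell. Without early-flowering replicate 1 the 1D block had 20.6%, against 11.3% of all genes tested that fell. Without late-flowering replicate 3 the 1D block had 17.6%, against 7.80% of all that fell. The 7S block then had 23.5%, against 8.60% of all that rose.

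The IDs are not paired with names, so 1 gene is given for each subgenome and direction. Each is the gene with the lowest p among those past the threshold whose values did not overlap between types, that changed at least 2-fold, and that averaged 5 CPM or more in the type where they were higher. Of the 12811 D genes tested, 602 that rose and 435 that fell met this rule. Of the 8878 S genes tested, 444 that rose and 250 that fell did. Over all genes tested, 7.01% were called at 2-fold or more as higher and 3.83% as lower, before the limits on overlap and CPM. These counts were not tested between D and S.

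Jr3DG00134000, gene 1340 of the 2437 genes of chromosome 3D in ID order, had 25.9, 24.1 and 25.2 FPKM in early-flowering libraries and 6.24, 5.46 and 6.01 FPKM in late-flowering libraries. Its log2 fold change was 1.99 (SE 0.10, edgeR adjusted p = 8.49e-04). Jr7DG00013000, gene 130 of the 1824 of 7D, had 16.8, 15.7 and 17.7 FPKM in early-flowering libraries and 32.1, 32.6 and 35.0 FPKM in late-flowering libraries. Its log2 fold change was −1.09 (SE 0.09, edgeR adjusted p = 0.00298). The rule asked for no overlap between types, so the separation of the types in both D genes follows from the selection.

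On the S chromosomes, Jr4SG00091200, gene 912 of the 1722 of 4S, had 7.11, 7.45 and 7.67 FPKM in early-flowering libraries and 1.93, 2.04 and 1.88 FPKM in late-flowering libraries. Its log2 fold change was 1.83 (SE 0.14, edgeR adjusted p = 0.00298). Jr3SG00143600, gene 1436 of the 1757 of 3S, had 20.8, 22.2 and 20.3 FPKM in early-flowering libraries and 80.3, 83.7 and 95.5 FPKM in late-flowering libraries. Its log2 fold change was −2.14 (SE 0.11, edgeR adjusted p = 8.49e-04). All 4 genes kept their call and direction under the 12 alternatives in which they were tested. They were picked for the lowest p in these same libraries, so this is no independent support.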

How the data were processed

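For each gene, the deposited table of the 6 mRNA libraries gives a read count, an FPKM value and a length, per the file headers. The authors' FPKM values equal the deposited read count over gene length and over the total count of that library, scaled as FPKM is defined, to within a relative difference of 3.8e-08. FastQC, Cufflinks, DESeq2 and HISAT2 are named, with no role, per the submitters' processing notes. The sources used here give no build, annotation or counting settings. The deposited miRNA table was not used, since it gives no chromosome.

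Groups and replicate numbers come from the sample titles. The counts of all 31425 genes entered edgeR 4.0.16 under R 4.3.3 (TMM scaling, filterByExpr with a minimum count of 10, robust quasi-likelihood fits, type as the only term, threshold 0.05), and D and S calls were then counted. SE values are the log2 fold change divided by the square root of F. Exact permutation tests over libraries were run in scipy 1.17.1. CPM logs used a prior count of 2. A floor of 3 counts was 0.128 to 0.178 CPM, covering counting error only. Replicates differed by more than counting noise (chi-square per degree of freedom of 9.15 to 30.4). The fits were tested on simulated counts. Alternatives covered DESeq2 1.42.0 and its size factors, total counts, filters, a fold limit, the 1% most abundant genes, dropping each library, and a replicate block. The members, groupings and the rule for named genes were chosen with earlier results of these data known. The division by length, abundance and ID order, and the count of neighbours, were chosen after the data were seen.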

Additional observations from a re-analysis of the deposited data

Results flagged for a closer look

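The 139 genes with IDs starting Jr00, which name neither D nor S, carried reads in each library although no comparison of D with S used them. They held a median of 0.0973% of the counts of a library (0.0943% to 0.1003% in early-flowering and 0.0946% to 0.1118% in late-flowering libraries). Their summed counts had a log2 fold change of −0.16 and did not pass (edgeR adjusted p = 0.0715).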

How the results depend on the processing

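The number of genes called stayed within 1.5 times of 3536 for D and 2355 for S in 7 of 13 alternatives each. Among them was DESeq2, with 4152 and 2745 (30.2% and 28.6%, 29.5% of all). A fold limit left 1400 and 950 by its construction (10.9% of tested D and 10.7% of tested S genes, 10.8% of all). The replicate block gave 901 and 596 (7.03% and 6.71%, 6.91% of all). Leaving out single libraries gave 795 to 4063 for D (6.13% to 31.2%) and 517 to 2748 for S (5.75% to 30.4%). Of all genes tested, 5.98% to 30.9% were then called, and the cause was not tested. The share called was higher for D than for S in 14 of 14 settings, and so was the share lower. The share higher was so in 10 of 14. The settings reuse the same 6 libraries, so this agreement is no independent support. In the main fit the shares called were 27.6% for D and 26.5% for S, against 27.1% of all. With the replicate block the shares lower were 3.65% for D and 3.62% for S, against 3.62% of all. These differences between D and S were not tested. Deviations of same-numbered libraries had correlations across genes of −0.281, −0.016 and −0.245, and no library was closest to its own number. The largest correlation was 0.333, between early-flowering replicate 1 and late-flowering replicate 3. With 3 libraries a type these values depend on each other, so they cannot settle whether libraries were paired. The numbers are used as names only. With the block, the exact p of the D to S ratio and of the D minus S mean was 0.25, the smallest that 3 pairs allow; their differences of −0.046 and −0.037 cannot change in a balanced design. Of the chromosome sums, 15 to 16 passed with single libraries left out, 13 without the 1% most abundant genes and 0 with total counts. Total counts turned the sign of 1S (0.03558), 2D (0.02696), 2S (0.04175), 4S (0.04103), 5D (0.03708), 5S (0.03921), 6S (0.03187), 7S (0.03572), 8D (0.002489) and 8S (0.0228), since they scale each library to the same sum. Among ratios by pair, none of them past the threshold, pair 3 ran from −0.035 to 0.017 and pair 5 from −0.011 to 0.0071 with libraries left out. Pair 5 was 0.0022 with sums of FPKM, pair 8 was 0.055 with them, and without the 1% most abundant genes pair 6 was 0.0029 and pair 8 0.018; the cause was not tested. The ratio of median FPKM was 1.038 to 1.041 with 5 libraries, where the smallest p is 0.0625. The ratio of D to S genes detected, 1.446 at an FPKM of 1, was 1.428 at 1 read and 1.431 at an FPKM of 0.1. Median lengths of the tested genes were 1478 for D and 1424 for S. Removing the top gene of 6D and the TMM-rescaled FPKM were chosen after the data were seen.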
